A study of Homo sapiens
Mus musculus with 17 samples.

Results

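Alpelisib exposure was read as the main effect of 1 drug in a 2-drug design. Of 17 tumours, 8 came from mice given alpelisib, 4 of them alone and 4 together with nintedanib, and 9 came from mice without it, 5 given nintedanib and 4 given vehicle. The tumours were chosen by their titles and treatment labels, and nintedanib exposure stood in the model as the other factor, so that every tumour counted towards the alpelisib estimate. All were xenografts of VM-CUB-1, a line from a human bladder cancer, in athymic nude mice of the strain Hsd:Athymic Nude-Foxn1nu, treated for 7 days with alpelisib at 25 mg/kg, nintedanib at 40 mg/kg, both at these doses, or a carrier of methylcellulose and Tween80. Such mice lack a thymus and therefore most mature T cells, while their other white blood cells are present. The study calls the cells nintedanib-resistant and set out to learn how the drugs act in synergy. Titles name 3 nintedanib tumours responders and 2 non-responders, whereas the series text gives 2 and 3, and the titles were followed. All tumours derive from a single cell line, and the labels do not say which tumours came from separate animals, so the spread behind each p-value is that between samples and may be partly technical.

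Alpelisib (BYL719) blocks PI3K alpha, one of the phosphoinositide 3-kinases (PI3K), the lipid kinases that insulin and growth factor receptors use to switch on AKT. AKT in turn keeps FOXO transcription factors out of the nucleus and feeds the mTOR pathway, so that blocked PI3K is known to release FOXO targets and to raise the expression of receptors and adaptors that feed the pathway. Nintedanib is a kinase inhibitor aimed at VEGF, PDGF and FGF receptors, which vessel and stromal cells carry. In these xenografts reads aligned to the human genome come mostly from tumour cells and reads aligned to the mouse genome mostly from host cells, and the deposited tables hold each species apart.

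Below, a level is a normalized count, given as the lowest, the median and the highest tumour of a group, and a change is the log2 ratio of exposed to unexposed tumours ± its standard error from the limma fit with nintedanib as a factor; values with ± in parentheses are such changes. The threshold for passing was an adjusted p (Benjamini-Hochberg, over all genes of the table with a mean of at least 10) under 0.05. Human reads per library had a median of 20453447 in exposed and 20312801 in unexposed tumours, with a range of 7429753 to 25654879 over all 17. Mouse reads ranged from 2271764 to 7438823. Vehicle 3 stood apart, with the fewest human reads and with 72.92% of its mouse reads on 2 genes, Lars2, which is protein-coding, and Rn45s, the precursor of ribosomal RNA, against a median of 13.7% over all libraries. In it Rn45s took 60.8% and Lars2 12.12%, each the highest of the 17 libraries. Combination 4, Alpelisib 3 and Combination 1 were above 40% for both genes together. They had 49.62%, 35.11% and 33.45% on Rn45s and 10.44%, 8.988% and 8.659% on Lars2. Whether the reads counted on Lars2 come from its own transcript was not tested. In the human table Nintedanib responder 1 lay closest of the 9 unexposed tumours to the exposed ones for 9 of the 17 genes with an adjusted p under 0.1, and in the mouse table it did so for 10 of the 24 genes that passed. These genes were chosen by their p in the same tumours, and how often it lay closest over all genes was not counted.

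In human reads 14533 genes were tested and limma found 0 that passed (0%), with a smallest adjusted p of 0.077. At an unadjusted p under 0.05 there were 2113 genes (14.5%), of which 1314 were higher (9.04%) and 799 lower (5.5%). The edgeR quasi-likelihood test and limma-voom also called 0 genes, whereas DESeq2 on the recovered reads called 137, 91 of them higher and 46 lower. The count turned on 1 unexposed tumour: without Nintedanib responder 1 limma called 67 genes, 57 higher and 10 lower, and with any other tumour left out it called 0. The human values below are therefore descriptions of tumours and estimates with errors, and none of these genes passed in limma with all 17 tumours. All 8 exposed tumours lay above all 9 unexposed ones for 3 genes (0.0206%), OTOP2, S1PR1 and OSR2, and below them for 3 others (0.0206%), DDX5, GZF1 and CEBPG. OTOP2, a proton channel at low level, had 15.7, 26.2 and 44.9 in exposed tumours, against 6.49, 10 and 14.7 in unexposed ones (1.28 ± 0.22, limma adjusted p = 0.077), and OSR2, a zinc finger factor, 185, 213 and 306 in exposed tumours, against 74.2, 153 and 178 in unexposed ones (0.64 ± 0.17, adjusted p = 0.18). S1PR1, a lipid receptor of vessel cells, had 449 human reads in all against 3777 mouse reads of the gene of the same name, and whether host RNA is counted in it was not tested.

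Among the genes of PI3K signalling the most negative estimates lay in a regulatory subunit and a phosphatase, and the most positive one in an inhibitor of PI3K. PIK3R3, a regulatory subunit of PI3K, had levels of 575, 736 and 966 in exposed tumours, against 763, 1189 and 1599.5 in unexposed ones, a change of -0.70 ± 0.13 (limma adjusted p = 0.0972). Only Alpelisib 1 and Combination 1 reached into the unexposed range, where the lowest tumours were Nintedanib responder 1 and Nintedanib non-responder 2. PIK3IP1, a membrane protein that inhibits the PI3K catalytic subunit and is a known FOXO target, had levels of 1255, 1446 and 2771 in exposed tumours, against 650.0, 938 and 1478 in unexposed ones, a change of 0.80 ± 0.18 (adjusted p = 0.148). All 8 exposed tumours lay above all 4 vehicle tumours and above 4 of the 5 nintedanib tumours. PHLPP2, a phosphatase that removes an activating phosphate from AKT, had levels of 90.7, 123 and 183 in exposed tumours, against 139.8, 194 and 351 in unexposed ones (-0.72 ± 0.18, adjusted p = 0.172), with Alpelisib 1 and Combination 1 again the only exposed tumours inside the unexposed range. PDPK1, the kinase that activates AKT, had a change of -0.40 ± 0.17 (adjusted p = 0.296). The catalytic subunits gave estimates with wide errors, 0.11 ± 0.24 for PIK3CA, the target of the drug, -0.35 ± 0.19 for PIK3CB and 0.058 ± 0.20 for PIK3CD. PIK3CA had median levels of 437 in exposed and 357 in unexposed tumours. Of the 16 PI3K and AKT components 1 was higher and 3 were lower at an unadjusted p under 0.05, against 9.04% and 5.5% of all human genes. Their median change was -0.075, against -0.0043 over all genes tested. With 1 tumour left out that median ran from -0.14 (Combination 3) to -0.032 (Nintedanib responder 2).

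With DESeq2 on the recovered reads, PIK3R3, PIK3IP1 and PHLPP2 passed, and without Nintedanib responder 1 limma called PIK3R3 and PIK3IP1. Such calls use the same tumours and are no separate support. The adjusted p ran over the alternatives tried from 0.000915 to 0.292 for PIK3R3, from 0.00973 to 0.336 for PIK3IP1 and from 0.0254 to 0.361 for PHLPP2. The signs of the 3 changes were the same in every alternative.

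FOXO targets included some of the largest human estimates. C10orf10, now named DEPP1, a stress-response gene known as a FOXO target, is no member of the list of FOXO genes and was named after its values were seen. It had the smallest p of all human genes, with levels of 83.6, 211 and 272 in exposed tumours, against 28.1, 54.6 and 191 in unexposed ones, a change of 1.81 ± 0.30 (adjusted p = 0.077). Its unexposed tumours lay below all exposed ones except Nintedanib responder 1, which had 191. PDK4, the kinase that turns off pyruvate dehydrogenase and a known FOXO target, had levels of 17, 51 and 99.7 in exposed tumours, against 3.29, 15.4 and 36.1 in unexposed ones (1.77 ± 0.42, adjusted p = 0.164), and its 4 combination tumours lay above all 9 unexposed ones. FBXO32, a ubiquitin ligase of muscle wasting and a known FOXO target, had levels of 451, 574 and 836 in exposed tumours, against 283, 418 and 518 in unexposed ones (0.62 ± 0.15, adjusted p = 0.164), with 6 of the 8 exposed tumours above all unexposed ones. CITED2, a transcriptional co-regulator that limits the response to hypoxia, had levels of 1561, 2239 and 2677 in exposed tumours, against 902, 1195 and 1986 in unexposed ones (0.77 ± 0.16, adjusted p = 0.0974). Among its unexposed tumours Nintedanib responder 1 and Vehicle 4 reached into the exposed range. Of the 25 members tested of the list of FOXO factors and targets 6 were higher and 1 was lower at an unadjusted p under 0.05, against 9.04% and 5.5% of all human genes, 18 were positive, against 49.4% of all genes, and the median change was 0.091. That median was 0.055 without Nintedanib non-responder 2, 0.15 without Alpelisib 1 and 0.14 without Vehicle 3. For alpelisib over vehicle the list median was -0.026, and for the combination over nintedanib it was 0.285. A difference between these 2 medians was not tested.

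**Figure D1:**
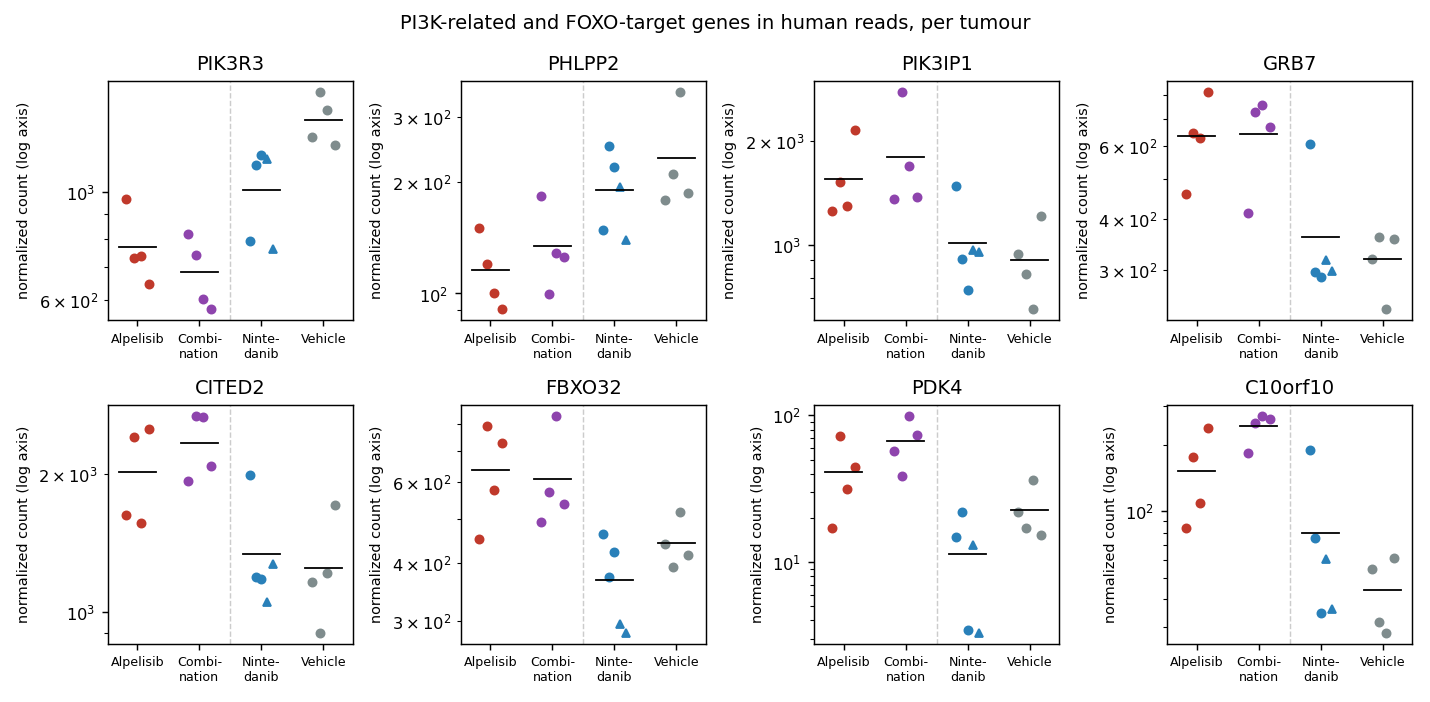
Normalized counts of 8 human genes in each tumour (log axis), with alpelisib and combination tumours left of the dashed line and nintedanib and vehicle tumours right of it. Points are tumours, triangles are nintedanib non-responders and black bars are group means. PIK3R3 and PHLPP2 sit lower left of the line and the other 6 genes higher, and 1 nintedanib responder lies among the exposed tumours for GRB7, CITED2 and C10orf10.

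Adaptors and receptors upstream of PI3K were measured next to these. GRB7, an adaptor that binds ERBB2 and other receptor kinases, had levels of 414, 657 and 813 in exposed tumours, against 241, 317 and 606 in unexposed ones, a change of 0.91 ± 0.17 (limma adjusted p = 0.0934). Nintedanib responder 1, with 606, was the only unexposed tumour within the exposed range. Receptor tyrosine kinases lay near the background: of 15 tested, 2 were higher and 0 lower at an unadjusted p under 0.05, against 9.04% and 5.5% of all human genes. Their median change was 0.0081, and with 1 tumour left out it ran from -0.026 (Combination 3) to 0.098 (Vehicle 3). FGFR4, a receptor for FGF, had median levels of 76.3 in exposed and 49.4 in unexposed tumours (0.50 ± 0.17), AXL, the GAS6 receptor, 0.53 ± 0.23, and INSR, the insulin receptor, -0.32 ± 0.17. IRS1, the docking protein of the insulin receptor, had a change of 0.37 ± 0.22. Their adjusted p-values were 0.242, 0.298, 0.367 and 0.437.

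The EGF family ligands split. EGF itself had levels of 13.7, 28.3 and 33.7 in exposed tumours, against 28.6, 50.6 and 72.8 in unexposed ones (-0.88 ± 0.23, adjusted p = 0.172), and 4 of the 8 exposed tumours lay below all unexposed ones. BTC, betacellulin, had a change of -0.54 ± 0.24. NRG1, a ligand of ERBB3 and ERBB4, had levels of 414, 749.9 and 832 in exposed tumours, against 227, 472 and 725 in unexposed ones (0.65 ± 0.23, adjusted p = 0.255), with broad overlap. TGFA had a change of -0.21 ± 0.23. Downstream, EIF4EBP1, the translation inhibitor that mTOR turns off, had levels of 561, 927 and 1678 in exposed tumours, against 169, 647 and 846 in unexposed ones (0.74 ± 0.26, adjusted p = 0.249). SESN2, a stress gene that inhibits mTOR, had a change of -0.44 ± 0.15 and SESN1 one of 0.29 ± 0.16. Of the 15 mTOR components and inhibitors tested 1 was higher and 1 lower at an unadjusted p under 0.05, against 9.04% and 5.5% of all human genes.

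The genes with the smallest p under the naming rule were 6 higher and 6 lower ones, some of them described above. GAST, the hormone gastrin, had levels of 42.3, 76.9 and 122 in exposed tumours, against 9.17, 23.4 and 102 in unexposed ones (1.49 ± 0.31, limma adjusted p = 0.0974). TKT, the transketolase of the pentose phosphate pathway, had levels of 4277, 5496 and 7086 in exposed tumours, against 2812, 3452 and 4528 in unexposed ones (0.65 ± 0.13, adjusted p = 0.0974). SLC38A5, a glutamine and serine transporter, had levels of 604, 984 and 1219 in exposed tumours, against 297, 492 and 1042 in unexposed ones (0.85 ± 0.18, adjusted p = 0.0974). In the unexposed groups Nintedanib responder 1 and Nintedanib non-responder 2 reached the exposed range for all 3 genes. PER1, a clock gene that glucocorticoids are known to induce, had levels of 733, 998 and 1707 in exposed tumours, against 313, 596 and 1062 in unexposed ones (0.88 ± 0.18, adjusted p = 0.0974). GRB7 and CITED2 were the other higher genes. In the other direction DDX5, an RNA helicase, had levels of 7172, 8945 and 10308 in exposed tumours, against 10738, 13160 and 17332 in unexposed ones, with no overlap of the groups (-0.60 ± 0.12, adjusted p = 0.0974). FAM84B, now named LRATD2, had levels of 492, 579.6 and 676 in exposed tumours, against 628, 974 and 1101 in unexposed ones (-0.63 ± 0.11, adjusted p = 0.077). Its only exposed tumours within the unexposed range were Alpelisib 2 and Alpelisib 4. CDR2 had a change of -0.72 ± 0.13, B3GNT2, an enzyme that extends sugar chains, -0.66 ± 0.13, and AKIRIN1 -0.66 ± 0.14, with adjusted p-values of 0.077, 0.0974 and 0.0974. PIK3R3 was the remaining lower gene. DESeq2 called all 12, as did limma without Nintedanib responder 1. The 12 were chosen by their p in the same tumours, so these calls are no separate support. Nintedanib responder 1 lay closest of the unexposed tumours to the exposed ones for 9 of the 17 human genes with adjusted p under 0.1. The share over all human genes was not counted.

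Epithelial differentiation genes were mostly on the higher side. VM-CUB-1 tumours carried abundant basal keratins: KRT14 had levels of 141080, 230980 and 415050 in exposed tumours, against 55319, 100920 and 221910 in unexposed ones (0.97 ± 0.27, adjusted p = 0.202) and KRT17 had 164130, 229960 and 417040 in exposed tumours, against 69847, 129400 and 316450 in unexposed ones (0.92 ± 0.25, adjusted p = 0.194). Of the 17 basal epithelial genes, all were positive, against 49.4% of all human genes, 7 were higher at an unadjusted p under 0.05 against 9.04% of all genes, and the median change was 0.51. KRT16, a keratin of activated and hyperproliferative epithelium, had levels of 21087, 33237 and 70955 in exposed tumours, against 4499.9, 16468 and 43250 in unexposed ones (1.29 ± 0.32, adjusted p = 0.164), and only Combination 2 lay above every unexposed tumour. Squamous differentiation genes build the outer, cornifying layers of such epithelia. Of their 30 members tested 29 were positive and 15 were higher at an unadjusted p under 0.05, with a median change of 0.78. KRTDAP, made in differentiating keratinocytes, had levels of 4945, 9057 and 16631 in exposed tumours, against 1061, 3368 and 16140 in unexposed ones (1.50 ± 0.41), and the cornified envelope precursor SPRR1A had 3234, 3971 and 10119 in exposed tumours, against 520.3, 2238 and 8183 in unexposed ones (1.36 ± 0.39). PI3, an elastase inhibitor of cornified epithelium, had a change of 1.29 ± 0.39, and SPRR1B one of 1.23 ± 0.36. The ranges overlapped widely in each of these squamous genes, and Nintedanib responder 1 and Nintedanib non-responder 2 carried levels like those of exposed tumours. S100A2, a calcium-binding protein of basal cells, had a change of 1.19 ± 0.40, and Vehicle 3, with 4006, lay far below all other tumours.

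The squamous median was 1.38 for alpelisib over vehicle and 0.28 for the combination over nintedanib. For KRTDAP the changes were 2.23 ± 0.56 and 0.83 ± 0.53, and the test of their difference gave an unadjusted p of 0.0838 and an adjusted p of 0.629, so a difference between them was not shown. Without Nintedanib non-responder 1 the change over nintedanib was 0.30 for KRTDAP (unadjusted p = 0.0041 and limma adjusted p = 0.623 for the difference). Luminal urothelial genes, which mark the bladder's surface layer, were mostly low or moderate in these tumours. UPK2, a uroplakin, had median levels of 57.6 in exposed and 46.4 in unexposed tumours and UPK1A 29.1 in exposed and 16 in unexposed tumours, while the simple keratin KRT7 had 5943, 10043 and 14907 in exposed tumours, against 2748, 5698 and 10829 in unexposed ones (0.85 ± 0.22, adjusted p = 0.172). The 13 luminal genes tested had 4 higher and 0 lower at an unadjusted p under 0.05, against 9.04% and 5.5% of all human genes. Their median change was 0.32.

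Ribosomal protein genes had the highest share of members past an unadjusted p under 0.05, 22 of 26 higher and 0 lower, with a median change of 0.69. Over all human genes 9.04% were higher and 5.5% lower at that p. RPL18 had levels of 13407, 21327 and 37885 in exposed tumours, against 2311, 13095 and 19258 in unexposed ones (0.97 ± 0.29) and RPS19 had 16499, 26341 and 45480 in exposed tumours, against 3192, 14256 and 25797 in unexposed ones (0.95 ± 0.29), with limma adjusted p-values of 0.226 and 0.228. GNB2L1, now named RACK1, a ribosome-bound scaffold, had a change of 0.66 ± 0.18. Vehicle 3 was the lowest of all tumours for each of the 3 genes, and without it the median of the ribosomal list was 0.46.

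Glycolysis genes were positive in 21 of 21 cases, against 49.4% of all human genes. Of these 8 were higher at an unadjusted p under 0.05, against 9.04% of all genes, and the median change was 0.30. ALDOA, the muscle-type aldolase, had levels of 31796, 39206 and 63689 in exposed tumours, against 17406, 27323 and 43521 in unexposed ones (0.68 ± 0.18), and GAPDH had 108980, 168100 and 215860 in exposed tumours, against 43800, 108970 and 155450 in unexposed ones (0.78 ± 0.23). The groups overlapped in both, with Nintedanib responder 1 the highest of the unexposed tumours. ENO1, an enolase, had a change of 0.54 ± 0.18, and ALDOC, the brain-type aldolase, one of 0.43 ± 0.14. Of the 16 hypoxia genes 3 were higher at an unadjusted p under 0.05, against the same 9.04%, with a median of 0.31. CA9, a carbonic anhydrase induced in hypoxia, had levels of 1204, 1733 and 2227 in exposed tumours, against 383, 1026 and 2088 in unexposed ones (0.82 ± 0.21, adjusted p = 0.173), and EGLN3, an oxygen sensor, a change of 0.73 ± 0.26. Angiogenic ligands, the signals of tumour cells to vessels, had 6 of 15 higher and 0 lower at an unadjusted p under 0.05. Their median was 0.49, and over all human genes 9.04% were higher and 5.5% lower. EFNA1, an ephrin, had levels of 1389.6, 1849.5 and 3567 in exposed tumours, against 662, 1137 and 2051 in unexposed ones (0.86 ± 0.20, adjusted p = 0.164). PGF, a VEGF family member, had a change of 1.15 ± 0.34, ANGPTL4, a secreted regulator of lipid use and vessels, one of 1.31 ± 0.39, and VEGFB one of 0.59 ± 0.18. For PGF and ANGPTL4 Nintedanib responder 1 was the highest of all 17 tumours. Without Nintedanib responder 1 limma called CA9, ANGPTL4, EFNA1, PGF and KRT16.

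Other human programmes mostly lay closer to the background in the number of members past an unadjusted p under 0.05. Over all human genes 9.04% were higher and 5.5% lower at that p. Of 30 cell cycle genes 1 was higher and 1 lower at an unadjusted p under 0.05, with 21 negative, against 50.6% of all genes, and a median of -0.16; the lower one was AURKA, a mitotic kinase (-0.43 ± 0.14). The cell cycle median was -0.041 without Alpelisib 1 and -0.097 without Combination 2. Of 24 sterol synthesis genes 4 were higher and 2 lower, among them MVD, an enzyme of the mevalonate pathway (0.63 ± 0.20), and INSIG1, its feedback inhibitor (-0.25 ± 0.10). The integrated stress response had 1 higher and 3 lower of 18, with ASNS, the asparagine synthetase, at -0.38 ± 0.14 and SHMT2, a mitochondrial serine enzyme, at 0.41 ± 0.15. The interferon response had 6 higher and 0 lower of 28, with 22 positive and a median of 0.12 (0.059 without Vehicle 2). In that list ISG15 stood at 0.94 ± 0.31 and the transcription factor IRF7 at 0.54 ± 0.18. ERK output genes had 0 of 17 past an unadjusted p under 0.05 and a median of 0.0094. The 12 MHC class I presentation genes had 0 as well, yet 11 were positive, with a median of 0.31. Chemokines and cytokines had 1 lower of 14, the neutrophil attractant CXCL5 (-0.75 ± 0.34). Host cell markers in the human table had 1 of 12 tested higher, CD68 (0.81 ± 0.25), with 12058 human and 11754 mouse reads. The remaining human lists, fatty acid synthesis, unfolded protein response, translation factors, lysosome and autophagy, BCL2 family and mesenchymal state, had at most 3 members past that p in a direction. Of these the BCL2 family had 9 of 12 positive and a median of 0.29, and translation factors 14 of 16 positive and 0.16.

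**Figure D2:**
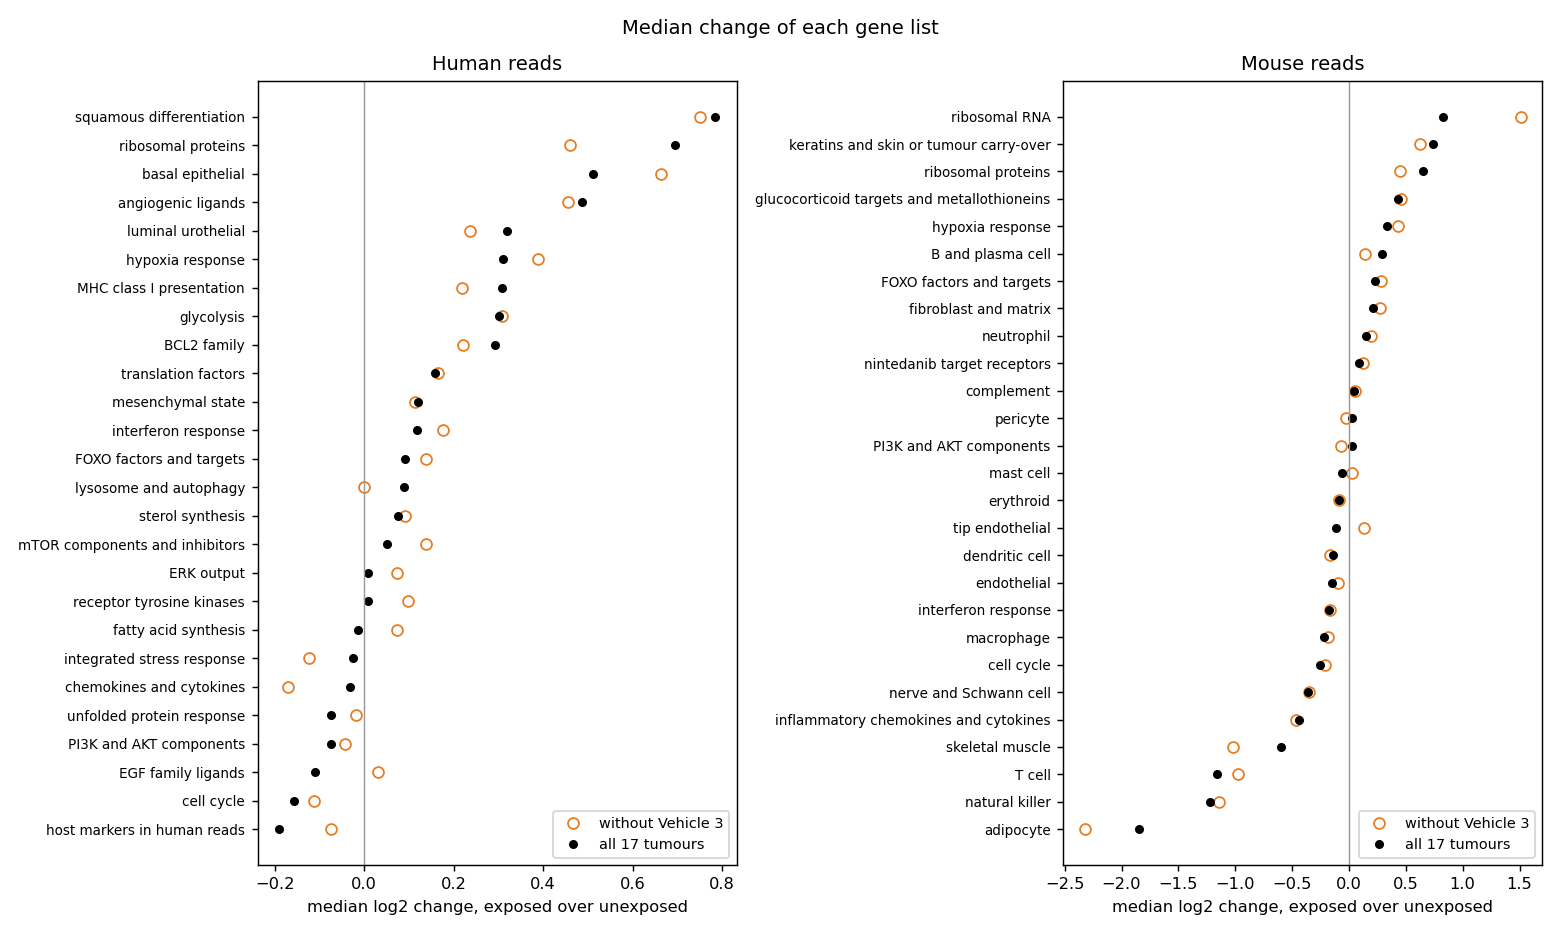
Median log2 change of each gene list, exposed over unexposed, in human reads (left) and mouse reads (right), with all 17 tumours (filled) and without Vehicle 3 (open). The human squamous list stands at 0.78 and the mouse adipocyte and natural killer lists at -1.85 and -1.22, and leaving out Vehicle 3 moves the human ribosomal protein list to 0.46.

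The same exposure was measured in separate tumours, alpelisib over vehicle and the combination over nintedanib, so the 2 estimates share no sample. Over the 14533 human genes 55.4% had the same sign in both, and across genes Pearson's r was 0.23 and Spearman's rho 0.18, a description in which genes are not independent. For PIK3IP1 the changes were 0.78 ± 0.26 over vehicle and 0.81 ± 0.25 over nintedanib, for CITED2 0.70 ± 0.23 and 0.83 ± 0.22, and for C10orf10 1.73 ± 0.44 and 1.88 ± 0.42. PIK3R3 had -0.87 ± 0.19 and -0.55 ± 0.18. PDK4 had 0.74 ± 0.53 and 2.70 ± 0.50, with an unadjusted p of 0.0151 for their difference and an adjusted p of 0.629. PIK3CA had -0.41 ± 0.32 and 0.57 ± 0.30, with an unadjusted p of 0.0361 and an adjusted p of 0.629. Single tumours moved 2 of these estimates, that of PDK4 over vehicle to 0.42 without Alpelisib 2 and that of PIK3CA over vehicle to -0.13 without Vehicle 3, where the unadjusted p for the PIK3CA difference was 0.0909. No human gene passed for a difference between the estimates: limma called 0, with 1070 genes (7.36%) at an unadjusted p under 0.05 and a smallest adjusted p of 0.629, and edgeR, limma-voom and DESeq2 called 0 as well.

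**Figure D3:**
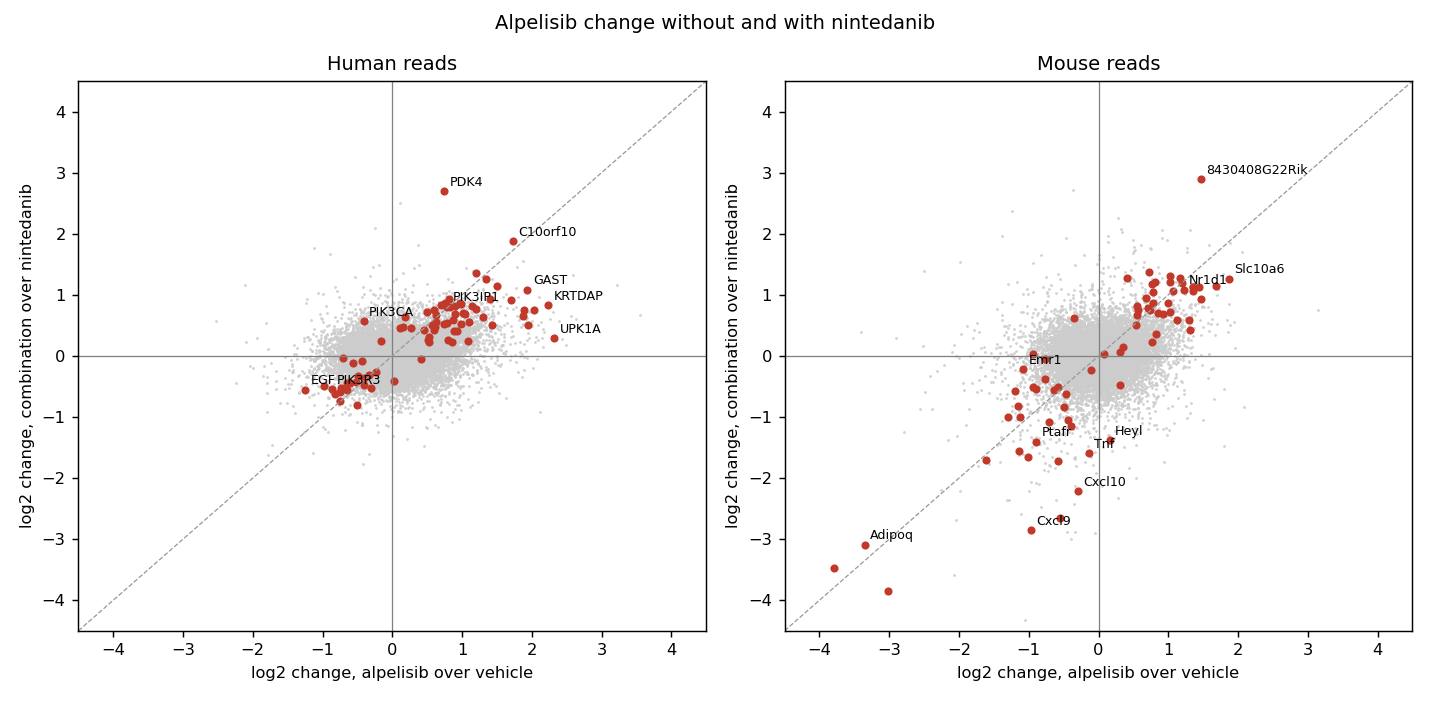
Log2 change of alpelisib over vehicle (horizontal) and of the combination over nintedanib (vertical) for all genes tested (grey) and for the genes named in the text (red), in human reads (left) and mouse reads (right); the dashed line marks equal changes. C10orf10 lies near that line at 1.73 and 1.88, whereas PDK4 stands at 0.74 and 2.70.

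In mouse reads 11831 genes were tested and 24 passed with limma (0.203%), 18 higher (0.152%) and 6 lower (0.0507%). At an unadjusted p under 0.05 there were 1569 (13.3%), of which 826 were higher (6.98%) and 743 lower (6.28%). The edgeR quasi-likelihood test called 24, 23 of them among the same genes, limma-voom called 28 with 23 shared, and DESeq2 called 320, 187 higher and 133 lower, with all 24 among them. The number of calls depended on single tumours. Without Combination 2 limma called 0 genes, without Combination 3 it called 6, without Vehicle 4 it called 8, without Alpelisib 4 it called 9, without Alpelisib 3 it called 10 and without Alpelisib 1 it called 15, whereas without Combination 1 it called 84 with all 24 among them. With the share of mouse reads on Rn45s and Lars2 as a covariate it called 136, again with all 24 among them. All 8 exposed tumours lay above all unexposed ones for 5 genes (0.0423%), Gm6981, Krt17, Porcn, Alg3 and Rpl12, and below them for 5 (0.0423%), which include Lrrc4, Slamf7, Enpp5 and Zfp828. Rpl12 (0.83, adjusted p = 0.0892), Slamf7, a receptor of natural killer and other white blood cells (-1.03, adjusted p = 0.0625), Enpp5 (-1.21, adjusted p = 0.0725) and Zfp828 (-0.58, adjusted p = 0.132) did not pass in limma, and their levels were looked at only because the groups did not overlap.

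**Figure D4:**
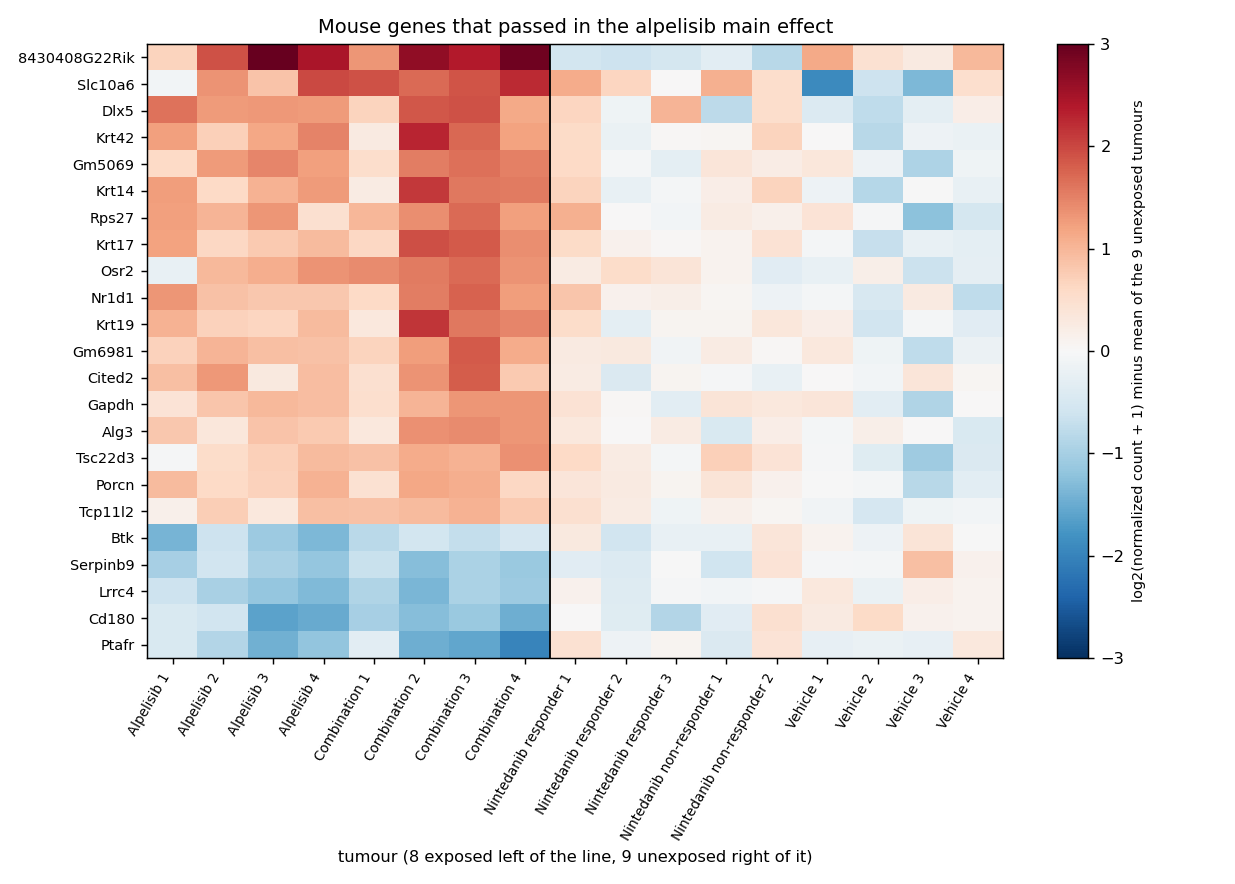
Levels of 23 of the 24 mouse genes that passed, per tumour, as log2(normalized count + 1) minus the mean of the 9 unexposed tumours; exposed tumours are left of the line. The upper 18 genes are higher and the lower 5 lower in exposed tumours, with weaker colours in Combination 1 for the keratins.

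Among the mouse genes that rose were transcriptional regulators. Nr1d1, the clock repressor REV-ERB alpha, had levels of 398, 558 and 894 in exposed tumours, against 153, 271 and 467 in unexposed ones, a change of 1.15 ± 0.18 (limma adjusted p = 0.0141), and of the unexposed tumours Nintedanib responder 1 alone reached the exposed range. Cited2 had levels of 603, 930.0 and 1755 in exposed tumours, against 368, 500.3 and 638 in unexposed ones (0.98 ± 0.19, adjusted p = 0.0259), and Alpelisib 3 was its only exposed tumour within the unexposed range. Tsc22d3, the glucocorticoid-induced leucine zipper and a known FOXO target, had levels of 237, 456 and 623 in exposed tumours, against 115, 234 and 395 in unexposed ones (0.87 ± 0.17, adjusted p = 0.0311). Osr2, a zinc finger factor of limb and palate development, had levels of 34.2, 104 and 133 in exposed tumours, against 25.3, 43.3 and 59.7 in unexposed ones (1.18 ± 0.20, adjusted p = 0.018), and 7 of the 8 exposed tumours lay above all unexposed ones. Dlx5, a homeobox factor of bone development, rose by 1.40 ± 0.27 (adjusted p = 0.0259). The gene listed as 8430408G22Rik, for which the files give no other name and which was named after its values were seen, had the largest estimate of the 24, with levels of 15.6, 54.4 and 132 in exposed tumours, against 4.84, 7.42 and 22.1 in unexposed ones (2.21 ± 0.36, adjusted p = 0.0141). Among its exposed tumours Alpelisib 1 was the only one within the unexposed range.

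The other genes that rose were keratins, housekeeping genes and a few enzymes. Krt17 had levels of 28495, 39231 and 70747 in exposed tumours, against 11460, 18920 and 27703 in unexposed ones, with no overlap (1.20 ± 0.19, adjusted p = 0.0141), and Krt14 had 40850, 82491 and 149610 in exposed tumours, against 19035, 33072 and 55057 in unexposed ones (1.24 ± 0.24, adjusted p = 0.0327). Krt19 and Krt42 rose by 1.13 and 1.28. Of the 16 members tested in the list of keratins and epithelial genes 3 passed, all higher, and 15 were positive, against 49% of all mouse genes. Porcn, the enzyme that lipidates WNT ligands, rose by 0.84 ± 0.16, and Alg3, a mannosyltransferase of protein glycosylation, by 0.91 ± 0.17, with adjusted p-values of 0.0252 and 0.0252. Slc10a6, a sulphated steroid transporter, rose by 1.55 ± 0.32 and Tcp11l2 by 0.74 ± 0.14. Gapdh, the ribosomal protein gene Rps27 and the gene models Gm6981 and Gm5069 made up the rest of the 18. Rps19 (1.18 ± 0.27, adjusted p = 0.0725) and Rpl37 (0.93 ± 0.23, adjusted p = 0.0911) had estimates of the same size and did not pass. Over the alternatives tried, the call was lost in 21 of 30 for Slc10a6 (adjusted p up to 0.165), in 19 of 31 for Gapdh (up to 0.226) and in 16 of 31 for Krt14 (up to 0.447). It was lost in 15 each for Tsc22d3 and Btk, in 1 each for Nr1d1 and Cd180, and in 2 to 13 for the other passing genes named here.

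Many of these mouse genes have a human counterpart with far more reads. Of the 18 genes that rose, 14 have a human gene of the same name and 13 of those had more human than mouse reads, a share of 72.2% of the 18 against 73.5% of all mouse genes tested. Krt19 had 3023 mouse and 1199501 human reads, Rps27 1624 and 439268, Gapdh 217850 and 2410309, and Krt17 534343 and 3717981. The human genes KRT17, KRT14 and GAPDH had positive changes of their own, 0.92, 0.97 and 0.78. Whether human reads counted on mouse genes take part in these changes was not tested. Nr1d1 had 7292 mouse and 17347 human reads, and Cited2 13207 and 31748. Slc10a6 had more mouse reads, 529 against 375. The human counterparts of some genes with the same direction were NR1D1 (0.82 ± 0.20), OSR2 (0.64 ± 0.17), TSC22D3 (0.38 ± 0.16), ALG3 (0.54 ± 0.15), PORCN (0.65 ± 0.18) and KRT19 (0.37 ± 0.24), none of which passed.

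Of the 6 mouse genes that fell, 5 are described here, and 4 of these are known from white blood cells. Cd180, a Toll-like receptor relative of B cells, macrophages and dendritic cells, had levels of 50.7, 67.4 and 114 in exposed tumours, against 84.2, 168 and 232 in unexposed ones (-1.14 ± 0.20, limma adjusted p = 0.0209). Nintedanib responder 3 was the only unexposed tumour within the exposed range. Btk, a tyrosine kinase of B and myeloid cells that binds PI3K's lipid product, had levels of 31.1, 48.9 and 58.6 in exposed tumours, against 56.2, 83.4 and 110.2 in unexposed ones (-0.87 ± 0.17, adjusted p = 0.0329). Ptafr, the receptor of platelet-activating factor, had levels of 19.9, 32.5 and 65 in exposed tumours, against 60.6, 72.9 and 113 in unexposed ones (-1.16 ± 0.22, adjusted p = 0.0252), and Combination 1 alone of the exposed tumours reached the unexposed range. Serpinb9, a granzyme B inhibitor, had levels of 33.2, 40.9 and 55.1 in exposed tumours, against 54.4, 79.9 and 154 in unexposed ones (-0.98 ± 0.18, adjusted p = 0.022), with only Alpelisib 2 inside the unexposed range. Lrrc4, a synaptic adhesion gene at low level, had 7.04, 9.17 and 12.5 in exposed tumours, against 14.9, 19.5 and 24.8 in unexposed ones (-1.06 ± 0.20, adjusted p = 0.0252). Rassf4, the next lower gene under the naming rule, did not pass (-0.71 ± 0.15, adjusted p = 0.0571). Cd180 and Btk had few human reads of the same name, 10 and 255, against 2327 and 1254 mouse reads. Of the 6 genes that fell 3 (50%) had more human than mouse reads, among them Ptafr with 1252 mouse and 4409 human reads and Serpinb9 with 1212 and 3893. In bulk tumours fewer cells of a type and less RNA per cell cannot be told apart.

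White blood cell markers did not all go the same way. Of 19 macrophage genes tested 0 passed, and 1 was higher and 3 were lower at an unadjusted p under 0.05. The shares over all mouse genes were 6.98% and 6.28%, and the macrophage median was -0.22. With 1 tumour left out the macrophage median ran from -0.27 to -0.092, the value nearest 0 being that without Alpelisib 1, and it was -0.13 to -0.14 without Nintedanib responder 1, Nintedanib non-responder 2, Combination 1 or Combination 3. Emr1, the macrophage antigen F4/80, had levels of 320.5, 501 and 635 in exposed tumours, against 489, 684 and 1012 in unexposed ones (-0.63 ± 0.16, adjusted p = 0.11). The 4 alpelisib tumours lay below all unexposed ones and the 4 combination tumours among them. Its change was -1.08 ± 0.19 for alpelisib over vehicle and -0.22 ± 0.18 for the combination over nintedanib, with an unadjusted p of 0.00457 and an adjusted p of 0.814 for the difference. Itgam, the integrin CD11b, had -0.93 ± 0.25 and 0.03 ± 0.24, and Ccr2, the monocyte chemokine receptor, -0.55 ± 0.20 over all. In the other direction Trem2, a lipid receptor of tissue macrophages, had levels of 264, 569 and 926 in exposed tumours, against 66.6, 345 and 463 in unexposed ones (0.82 ± 0.31, adjusted p = 0.254). Vehicle 3 had 66.6, the lowest level of all tumours, and without that tumour the change was 0.56. Without the 4 libraries of most reads on Rn45s and Lars2 it was 0.37. Neutrophil, dendritic and mast cell lists had 0 members past an unadjusted p under 0.05 in either direction.

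Genes of natural killer cells, the main cytotoxic cells of mice without a thymus, all had negative estimates where tested. Of 13 genes 10 were tested, and all 10 were negative, against 51% of all mouse genes. At an unadjusted p under 0.05, 6 were lower against 6.28% of all genes, and the median change was -1.22. That median was -0.56 for alpelisib over vehicle and -1.65 for the combination over nintedanib, a difference that was not tested. With 1 tumour left out it ran from -1.44 to -0.882. The summed level of the 13 genes ran from 107 to 279 in exposed tumours (median 132), and from 120.0 to 1508 in unexposed ones (median 284). Klrk1, the activating receptor NKG2D, had levels of 24.2, 46.3 and 80.9 in exposed tumours, against 49.6, 87.5 and 184 in unexposed ones (-0.79 ± 0.30), and Ncr1, the receptor NKp46, 4.92, 7.26 and 12.5 in exposed tumours, against 5.74, 18.7 and 90.7 in unexposed ones (-1.19 ± 0.44). The groups overlapped in both genes. Eomes, a transcription factor of these cells, and Il2rb, an interleukin-2 receptor chain, had changes of -1.66 ± 0.59 and -1.36 ± 0.53. The adjusted p-values of the 4 genes were 0.246, 0.245, 0.225 and 0.275, and none passed. T cell genes were near the floor, with Cd8a at 0, 6.77 and 20.2 in exposed tumours, against 1.27, 14.8 and 106 in unexposed ones (-1.66 ± 0.75) and Lck, also present in natural killer cells, at -1.35 ± 0.58. Their list median was -1.16 (-0.76 without Nintedanib non-responder 2), yet the list's summed level had a median of 1337 in exposed and 952 in unexposed tumours, a sum that includes Thy1, which fibroblasts also express (0.58 ± 0.22). With a minimum mean of 50 only 3 T cell genes were tested and their median was 0.11.

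Inflammatory signals of the host were mostly on the lower side. Of 15 chemokines and cytokines tested 4 were lower and 1 higher at an unadjusted p under 0.05, against 6.28% and 6.98% of all mouse genes. Their median was -0.44 (-0.28 without Combination 3). It was -0.068 for alpelisib over vehicle and -0.842 for the combination over nintedanib, and a difference between these 2 medians was not tested. Of the 15 in this list with a human namesake 7 had more human than mouse reads, against 73.5% of all mouse genes tested. Cxcl9 and Cxcl10, interferon-induced attractants of lymphocytes, had levels of 59.5, 172 and 548 in exposed tumours, against 85.4, 796 and 4559 in unexposed ones (-1.96 ± 0.76) and 27.1, 106 and 195 in exposed tumours, against 77.9, 237 and 639 in unexposed ones (-1.31 ± 0.43), and the highest tumour for both was Nintedanib non-responder 2. Tnf, the inflammatory cytokine, had levels of 14.8, 24.5 and 48.2 in exposed tumours, against 16.1, 56.2 and 77.4 in unexposed ones (-0.90 ± 0.29, limma adjusted p = 0.178). The 4 combination tumours lay below all 5 nintedanib tumours for Tnf. Vehicle 3 had 16.1, against 44.11 to 77.4 in the other unexposed tumours, and without it the change was -1.14 and passed in limma (adjusted p = 0.029). Its changes were -0.14 ± 0.35 for alpelisib over vehicle and -1.59 ± 0.34 for the combination over nintedanib, with an unadjusted p of 0.00761 and an adjusted p of 0.814 for their difference. With 1 tumour left out the change over vehicle ran from -0.54 (without Vehicle 3) to 0.093 (without Alpelisib 3), so its sign was not fixed, and the unadjusted p for the Tnf difference ran from 0.0027 to 0.0189. Cxcl10 had -0.29 ± 0.55 and -2.22 ± 0.52, with an unadjusted p of 0.0198, and its change over vehicle ran from -0.60 to 0.11 with 1 tumour left out (without Vehicle 1 and without Vehicle 4). Ccl4, a chemokine of activated white blood cells, had a change of -0.76 ± 0.30. Interferon response genes had 5 lower and 0 higher of 25, with Rsad2, an antiviral enzyme, at -0.67 ± 0.20. Of the 23 with a human namesake 21 had more human than mouse reads, against the same 73.5%. Rsad2 had 12491 human and 2147 mouse reads and Cxcl10 48974 and 4031, whereas Cxcl9 had 59 and 16573. Whether human reads counted on these mouse genes take part in the changes was not tested. Of the 25, 20 were negative, against 51% of all mouse genes, and the median was -0.17. That median was 0.0996 for alpelisib over vehicle and -0.317 for the combination over nintedanib, and this difference was not tested either. With DESeq2 on the recovered reads the mouse genes called lower included Emr1, Eomes, Ncr1, Il2rb, Tnf, Cxcl9, Cxcl10 and Ccl4. No mouse gene passed for a difference between the estimates with and without nintedanib: limma called 0, with 617 (5.22%) at an unadjusted p under 0.05 and a smallest adjusted p of 0.814, and edgeR, limma-voom and DESeq2 called 0 as well.

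**Figure D5:**
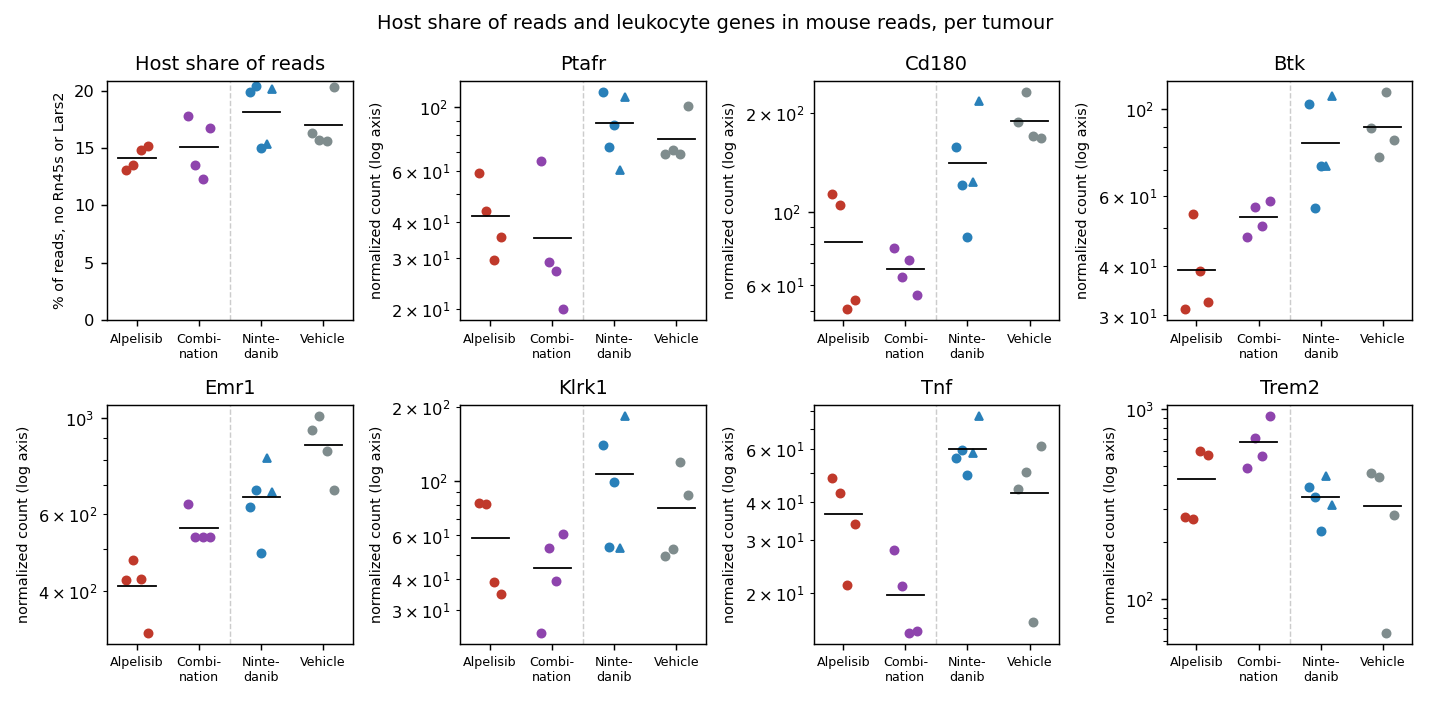
Host share of reads without Rn45s and Lars2 (percent) and normalized counts (log axes) of 7 mouse genes of white blood cells, per tumour, with exposed groups left of the dashed line; triangles are nintedanib non-responders and bars are group means. For Ptafr only Combination 1 of the exposed tumours lies within the unexposed range. For Klrk1 and Trem2 the groups overlap in part, with the exposed median outside the unexposed range.

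Fat cell genes had the lowest list median in the mouse table, -1.85 over 11 members tested of 14. At an unadjusted p under 0.05, 7 were lower and 0 higher, against 6.28% and 6.98% of all mouse genes. Their levels were low and patchy. Adipoq, the hormone adiponectin, had 0, 0 and 14.1 in exposed tumours, against 0, 27.3 and 287 in unexposed ones, Cfd, the complement factor adipsin, 0, 3.08 and 92.5 in exposed tumours, against 0, 112 and 1384 in unexposed ones, and Car3, a carbonic anhydrase of fat and muscle, 0, 2.58 and 383 in exposed tumours, against 0, 217 and 1669 in unexposed ones. Several unexposed tumours lay at 0 or near it too. Lpl, a lipase that macrophages also make, had 58.6, 129.7 and 208 in exposed tumours, against 103, 221 and 758 in unexposed ones (-0.90 ± 0.29, adjusted p = 0.183). Skeletal muscle genes had a median of -0.60, and 0 of 17 past that p, with summed levels up to 11451 in exposed and 50092 in unexposed tumours. With 1 tumour left out the muscle median ran from -1.39 (without Combination 2) to -0.045 (without Nintedanib non-responder 1), and it was -0.076 without Vehicle 1. How much neighbouring tissue was taken with a tumour was not tested.

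Endothelial genes lay near the background in the number of members past an unadjusted p under 0.05. Of 24 endothelial genes 0 were higher and 1 lower at that p, the lectin receptor Clec14a (-0.60 ± 0.24), against 6.98% and 6.28% of all mouse genes. Of the 24, 17 were negative, against 51% of all genes, and the median was -0.15. The endothelial median was -0.00021 without Alpelisib 1, -0.095 without Nintedanib responder 2 and -0.10 without Vehicle 3. Kdr, the main VEGF receptor, had levels of 56.1, 148 and 226 in exposed tumours, against 63, 239 and 581 in unexposed ones (-0.56 ± 0.28, limma adjusted p = 0.404), with 7 of 8 exposed tumours in the unexposed range. Pdgfrb and Fgfr1, which nintedanib also targets, had changes of 0.17 ± 0.23 and 0.25 ± 0.19. Genes of sprouting tip cells had 3 higher of 19, Adm, a vasodilator peptide (1.22 ± 0.34), Pgf (1.02 ± 0.34) and Cxcr4 (0.53 ± 0.16), and a median of -0.12, which was 0.13 without Vehicle 3 and 0.066 without Alpelisib 1. Adm and Pgf had 75674 and 7655 human reads against 1709 and 1755 mouse reads, Cxcr4 495 against 5464. Pericyte genes had 3 higher of 14, the contractile genes Acta2 (0.62 ± 0.24) and Tagln (0.66 ± 0.27) and the mitochondrial gene Ndufa4l2 (1.07 ± 0.31). Ndufa4l2 had 3097 mouse and 88355 human reads, Acta2 37147 and 4897, and Tagln 39039 and 8882. Heyl, a Notch target of mural cells, had 0.16 ± 0.40 for alpelisib over vehicle and -1.38 ± 0.38 for the combination over nintedanib, with an unadjusted p of 0.0123 for the difference, and its change over vehicle ran from 0.00024 (without Alpelisib 3) to 0.51 (without Alpelisib 2). Fibroblast and matrix genes had 1 higher of 24, Thy1.

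Hormone- and hypoxia-responsive host genes were positive as lists. All 11 glucocorticoid targets and metallothioneins tested were positive, against 49% of all mouse genes, 6 were higher at an unadjusted p under 0.05, against 6.98%, 1 passed (Tsc22d3), and the median was 0.43. Of the 10 with a human namesake 9 had more human than mouse reads, against 73.5% of all mouse genes tested. Counts of higher and lower genes in the lists that follow are at the same unadjusted p. At that p 6.98% of all mouse genes were higher and 6.28% lower. Per1 had levels of 87.3, 136 and 277 in exposed tumours, against 60.6, 71.7 and 129 in unexposed ones (0.87 ± 0.21, limma adjusted p = 0.0911) and Mt1, a metallothionein, a change of 0.69 ± 0.28. Of 16 hypoxia genes 8 were higher, with Egln3 at 0.83 ± 0.28 and Ndrg1 at 0.75 ± 0.26, yet 15 of the 15 with a human namesake had more human reads. The 25 FOXO factors and targets had 6 higher and 1 lower, of which Cited2 passed, and Bcl6, a transcriptional repressor, had 0.80 ± 0.21 and Klf4 0.85 ± 0.25. For 23 of these 25 the human gene had more reads. The mouse FOXO median was 0.225, with -0.061 for alpelisib over vehicle and 0.386 for the combination over nintedanib. Host Pik3ip1 had levels of 37.4, 66.9 and 121 in exposed tumours, against 25.3, 44.5 and 87.4 in unexposed ones (0.48 ± 0.21). Host Pik3ca, Pik3cb and Pik3cd had changes of 0.16 ± 0.21, -0.39 ± 0.22 and -0.17 ± 0.15. Of 30 cell cycle genes, all with more human reads, 1 was higher and 2 lower, Ccna2, a cyclin, among the lower ones (-0.55 ± 0.20). Of the 30, 26 were negative, against 51% of all mouse genes, and the median was -0.255 (-0.15 without Nintedanib non-responder 2). Ribosomal protein genes had 21 of 26 higher and a median of 0.65, and all 26 had more human reads; without Vehicle 3 the median was 0.45. The remaining mouse lists (nintedanib target receptors, complement, B and plasma cell, erythroid, and nerve and Schwann cell) had at most 2 members past that p in a direction.

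The share of reads from the host was lower with the drug once Rn45s and Lars2 were set aside. Without Rn45s and Lars2 the host share was 14.6% ± 1.89 (SD, n = 8) in exposed and 17.6% ± 2.47 (SD, n = 9) in unexposed tumours, and it ran from 12.3% to 17.81% in exposed tumours and from 15% to 20.45% in unexposed ones. The ranges overlapped. The difference within nintedanib strata was -2.95 percentage points (two-sided exact permutation p = 0.0156 over 8820 orders, adjusted p = 0.0468 over 3 measures). With these genes included the share was 19.7% ± 7.5 (n = 8) and 22.5% ± 7.41 (n = 9), a difference of -2.88 (exact permutation p = 0.504, adjusted p = 0.751), or -0.0965 without Vehicle 3 (exact permutation p = 0.972). The share of mouse reads on Rn45s and Lars2 was 23.9% ± 21.5 and 19.9% ± 22.3 (exact permutation p = 0.751). Mouse normalized counts are scaled within the mouse table, so they hold levels relative to other host RNA and not this share.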

How the data were processed

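RNA sequencing reads of 17 xenografts had been aligned to the human and the mouse genome separately by the submitters. Bowtie, TopHat and DESeq2 and the builds hg19 and mm10 are named in the submitters' processing notes, and tool versions are not given in the sources used here. For each species the authors deposited 1 table, a normalized signal which the values show to be read counts divided by a size factor per library. In each library and for every gene the values were whole multiples of 1 step, within 0.01 of a whole read for 100% of values, so reads were recovered. Libraries held 7429753 to 25654879 human and 2271764 to 7438823 mouse reads. Reads that match both genomes may be counted in both tables.

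Levels were tested as log2(normalized count + 1) with limma 3.58.1 (R 4.3.3), alpelisib and nintedanib as terms, for genes with a mean of at least 10, with Benjamini-Hochberg adjustment per table. Differences between strata came from the interaction term. Shares were tested by exact permutation within nintedanib strata. Alternatives used edgeR 4.0.16, limma-voom and DESeq2 1.42.0 on recovered reads, TMM scaling, other pseudocounts, filters and terms, and each library left out. The fits were also run on simulated counts in which no tumour was set apart. That run does not bear on calls that turn on single tumours. Since the deposited values are not raw counts, limma was the main test.

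Members, gene lists and tests were chosen with earlier results of these data known. Genes named were, per table, up to 12 of the largest changes per direction among passing genes with a group mean of at least 50, or the 6 of smallest p where fewer than 6 passed, leaving out unnamed gene models. Up to 4 genes of smallest p per list and the drug targets were named as well. Genes outside this rule, chosen after their values were seen, were C10orf10, 8430408G22Rik, genes without overlap, the other passing genes, clock genes and namesakes in the other table. Values of 2 mouse genes are not reported here. Replicate numbers did not pair tumours. No pair of libraries of a group agreed within sampling noise: the lowest chi-square per gene was 18.61 in human and 14.39 in mouse reads.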

Additional observations from a re-analysis of the deposited data

Results flagged for a closer look

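Of 314 groups of tumours tested, 23 held 1 tumour far from the others of its side, and chance alone flags about 1 in 20. Vehicle 3 was that tumour in 14 of them. It had a host share of 40.63% against 16.7% to 25.63% in the other unexposed tumours, and 72.92% of its mouse reads on Rn45s and Lars2 against 1.73% to 28.08%. In human reads it was low for ribosomal genes, with RPL18 at 2311, RPS19 at 3192 and GNB2L1 at 7326, against lowest values of 9033, 11480 and 14200 elsewhere among unexposed tumours. It was low as well for EIF4EBP1 at 168.5, S100A2 at 4006, ISG15 at 1210 and OSR2 at 74.22. In mouse reads it had Rps19 at 1727, Rpl37 at 1545, Gm6981 at 2668, Trem2 at 66.6 and Tnf at 16.07, each below all other unexposed tumours.

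Nintedanib responder 1 stood above the other unexposed tumours for GRB7, at 606.2 against 240.7 to 359.9. Nintedanib non-responder 2 was lowest of the unexposed tumours for B3GNT2, at 406.4. Of the exposed tumours Alpelisib 1 was high for SESN2, at 474 against 213.2 to 284.6, and low for mouse Osr2, at 34.24, and Acta2, at 795.3. Combination 2 was high for EFNA1, at 3567 against 1390 to 2108, and for the fat cell gene Cfd, at 92.53 against 0 to 6.22. Combination 1 was low for IRF7, at 346.3 against 604.9 to 929.5, and Combination 3 for mouse Per3, at 4.92.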

How the results depend on the processing

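In the human table limma called 1 gene with no filter on low values and DESeq2 called 137, while leaving out 1 tumour gave 0 to 67 calls, the 67 without Nintedanib responder 1. The other alternatives called 0 human genes. In the mouse table, against 24 calls, DESeq2 gave 320, the share on Rn45s and Lars2 as a covariate 136, leaving out the 4 libraries highest in that share 71, and leaving out 1 tumour 0 to 84. Responders and non-responders as separate levels gave 3, a fit that sets combination tumours against the 2 non-responders alone. The remaining alternatives, other than the replicate block given below, gave 16 to 28 calls. The interaction stayed at 0 calls in the 28 alternatives run for it in each table, which were chosen after seeing the data, as were the estimates over vehicle or nintedanib with 1 tumour left out. The difference in host share without Rn45s and Lars2 ran from -3.4 to -2.39 percentage points with 1 tumour left out. Same-numbered tumours correlated above 0.1 in 7 of 27 human and 5 of 27 mouse pairs, and 5 and 4 of the 17 were closest to their own number, so the numbers do not pair them; a replicate block gave 0 human and 4 mouse calls. Of 4693 values for 152 named genes 4394 kept their direction and side of the threshold, 203 no longer passed, 88 newly passed and 8 changed sign. Only genes that had passed could lose a call, at most the 24 mouse genes. The 4394 thus count mostly genes that passed neither in the main fit nor in the alternative. Without those 4 libraries the sign turned for PIK3CA (-5.22e-05) and TGFA (0.12). With 1 tumour left out PIK3CD ran from -0.065 to 0.16, mouse Per3 from -0.21 to 0.14 and the difference in the share on Rn45s and Lars2 from -1.03 (without Alpelisib 3) to 12.1 percentage points (without Vehicle 3), and Per3 was 0.032 with responders as a separate level. The causes were not tested. List medians moved by more than the spread left between tumours in the list's median level in 2 of 1642 values. These were human interferon genes and mouse B and plasma cell genes at a minimum mean of 50. The bar was loose, since that spread was 2.95 for skeletal muscle and 1.34 for T cell genes. A median could change sign and count as unmoved, as did that of tip cell genes (-0.12, or 0.13 without Vehicle 3). Depth limits the genes of low level, such as those of T cells, fat and Tnf.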

Other observations

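Clock genes were looked at after the values of NR1D1 and PER1 had been seen. In human reads NR1D1 had levels of 853, 1199 and 1866 in exposed tumours, against 458, 626 and 1306 in unexposed ones (0.82 ± 0.20, limma adjusted p = 0.172), and PER1 had a change of 0.88 ± 0.18. PER3, another period gene, had -0.47 ± 0.14, PER2 0.17 ± 0.15 and ARNTL, the activator that NR1D1 represses, -0.25 ± 0.14. In mouse reads Nr1d1 rose by 1.15 ± 0.18 (limma adjusted p = 0.0141), while Per1, Per2, Per3 and Arntl had changes of 0.87 ± 0.21, -0.71 ± 0.37, -0.10 ± 0.28 and 0.06 ± 0.14, none of which passed. The change of mouse Per2 was -0.38 without Alpelisib 3 and -0.19 without the 4 libraries of most reads on Rn45s and Lars2. The hour at which tumours were taken is not given in the sources used here.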
